A study of Raphidocelis subcapitata with 45 samples.

Results

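The comparison set 3 libraries of the green alga Raphidocelis subcapitata exposed to 12249 µg/L sertraline (replicates A to C) against 5 libraries exposed to 1960 µg/L (replicates A to E), 8 of the 41 libraries with values in the deposited table. Both groups were chosen by the concentration in the sample labels, and the control libraries did not enter the difference between them. All groups were the Carolina Biological culture in exponential growth, held for 24 h under constant light with sertraline hydrochloride or, in the solvent control of 5 libraries, with DMSO alone. The series has 8 nominal concentrations between 50 and 30623 µg/L. RNA came from homogenates pooled over 3 plates and was sequenced from its 3′ ends. Labelled replicates D and E at 12249 µg/L have no values in that table and are not analysed here. No label names separate cultures for the letters, so a p-value reflects variation among libraries that could be technical in origin.

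R. subcapitata is a single-celled freshwater alga that drives most of its metabolism by photosynthesis and is a standard organism of aquatic toxicity tests. Sertraline is an antidepressant that blocks the serotonin transporter in animals. It is also a lipophilic amine, a kind of molecule that can gather in membranes and in acidic compartments of cells. A transcript that moves at one concentration may move further at a higher one, stay, or turn back, and the comparison with 1960 µg/L asks which of these each gene did. The table lists genes by identifier without product names, so no gene function is given, and 4 genes are named by a fixed rule: the strongest rise and fall among genes that went further and among genes that turned back.

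Set against each other, the 8 libraries formed 2 separate groups. Pearson correlations across genes lay between 0.909 and 0.948 among the 12249 µg/L libraries and between 0.917 and 0.944 among the 1960 µg/L libraries, against 0.742 to 0.836 between the groups. Among all 41 libraries, 12249 µg/L replicate C was closest to replicate A at 30623 µg/L (0.929). The closest library to 12249 µg/L replicate A also lay outside both groups (0.949). Library medians were 4.56 to 4.59 at 12249 µg/L and 4.62 to 4.66 at 1960 µg/L on the log2 scale. The median SD of a gene was 0.34 at 12249 µg/L (n = 3), 0.32 at 1960 µg/L (n = 5) and 0.24 in the control (n = 5), also on the log2 scale. The read depth of each library is unknown. Values are relative to the rest of a library's RNA, so fewer cells and less RNA per cell cannot be told apart.

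A change between 1960 and 12249 µg/L was called for 3139 of 7291 genes (43.1%) at an adjusted p under 0.05 (limma, with Benjamini-Hochberg adjustment over the whole table). At 12249 µg/L, 1522 of them stood higher (20.9% of the table) and 1617 stood lower (22.2%). The median log2 change was 0.93 among the genes that rose (quartiles 0.69 and 1.32) and -0.86 among those that fell (quartiles -1.14 and -0.68). A log2 change of at least 1, which is a doubling or halving, was passed by 1249 called genes (17.1%), 675 higher and 574 lower. At a log2 change of at least 2 the rises led more clearly, with 106 genes against 65. The highest value was 4.38 and the lowest -3.60, with a median standard error of 0.24. In 2337 genes (32.1%) the 3 libraries at 12249 µg/L all lay on one side of the 5 at 1960 µg/L, and 2219 of these were called in that direction.

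**Figure D1:**
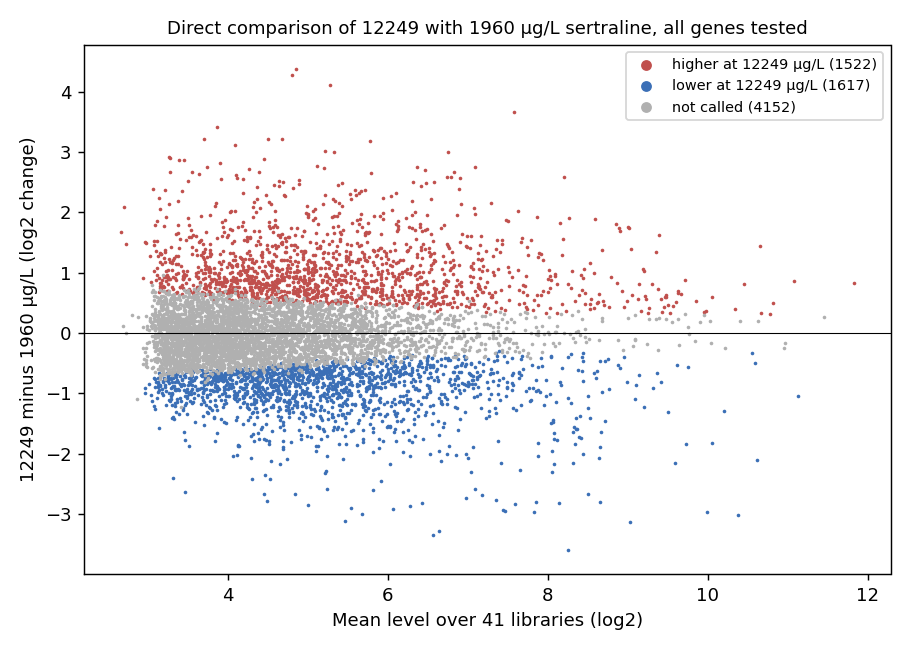
Log2 change between 12249 and 1960 µg/L sertraline (vertical axis) against the mean level over 41 libraries (horizontal axis, log2) for each of 7291 genes; red points were called higher, blue points lower at 12249 µg/L and grey points were not called. The 1522 rises and 1617 falls lie at every level, and called changes near 0 appear only among well expressed genes.

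These calls use a spread shared by all groups, which is smaller than that of the 2 groups compared. On simulated data with few changed genes, this fit called more unchanged genes than its threshold allows. The counts above and the classes built on them may therefore hold more false calls than the adjusted p states. Since 43.1% of genes were called here, the simulation does not give the share of false calls among them. With libraries weighted by the spread of their group, 1147 genes were higher and 1146 lower, and with the 2 groups fitted alone 1241 were higher and 1192 lower, so falls were in the majority in neither. Centring the libraries on their median gave 1612 higher and 1507 lower, also with the majority turned. Without 12249 µg/L replicate C, 2532 genes differed, against 2918 without A and 2873 without B. A gene without a call was not shown to be unchanged: of the 4152 such genes, the 95% interval of the log2 change lay within 0.5 of 0 in 415 and within 1 of 0 in 3544.

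The 1960 µg/L response was then followed through the direct comparison. At 12249 µg/L, 1719 genes (23.6%) exceeded the control and 1904 (26.1%) lay below it. At 1960 µg/L, 716 genes (9.82%) exceeded the control, here called its rises, and 897 (12.3%) lay below it, its falls. Each of the 1613 genes called at 1960 µg/L was placed by 2 further calls, the direct one between 12249 and 1960 µg/L and the one between 12249 µg/L and the control. A gene was strengthened when it moved further from the control, kept when no direct change was called and it still differed from the control, and unresolved when neither was called. A gene that moved back was weakened when it still differed from the control in its first direction, returned when it no longer differed, and overturned when it differed in the opposite direction.

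Of the 716 rises at 1960 µg/L, 168 (23.5%) were strengthened, 229 (32.0%) kept and 107 (14.9%) unresolved at 12249 µg/L. A further 212 turned back, of which 11 (1.54%) were weakened, 136 (19.0%) returned and 65 (9.08%) overturned. Of the 897 falls, 229 (25.5%) were strengthened, 349 (38.9%) kept and 106 (11.8%) unresolved, and 213 turned back, with 12 (1.34%) weakened, 125 (13.9%) returned and 76 (8.47%) overturned. With libraries weighted by group, 144 rises and 186 falls were strengthened, 244 and 386 kept, 170 and 204 turned back, and 63 and 81 overturned. Under these weights 198 rises and 189 falls were unresolved, and 4 rises were weakened. Single libraries also moved the small classes. Without 12249 µg/L replicate C, 169 rises and 185 falls were unresolved and 5 and 6 weakened, without replicate A 7 and 7 were weakened, and without replicate B 6 rises were weakened.

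**Figure D2:**
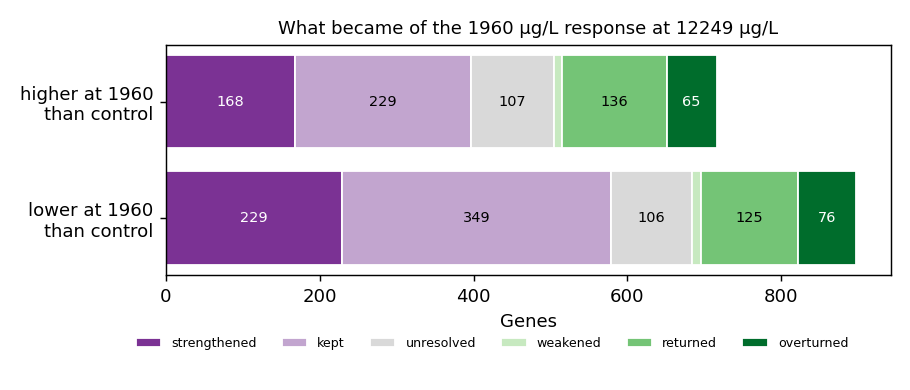
Number of genes (horizontal axis) in each class at 12249 µg/L, for the 716 genes higher (upper bar) and the 897 genes lower (lower bar) at 1960 µg/L than in the control. Kept genes are the largest class of both bars, with 229 rises and 349 falls, and the dark green ends hold the 65 and 76 overturned genes.

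Direct calls in either direction were made for 53.1% of the rises and 49.3% of the falls at 1960 µg/L, against 43.1% of all genes. Of the 716 rises, 23.5% were higher and 29.6% lower at 12249 than at 1960 µg/L, against 20.9% and 22.2% of all genes. Of the 897 falls, 25.5% were lower and 23.7% higher, against 22.2% and 20.9% of all genes. No class of genes by mean level showed this excess of the falls in both directions. Among 550 falls in the highest of 3 equal classes, 32.7% were lower and 26.9% higher, against 32.0% and 29.6% of all genes there. In the middle class (226 falls) these shares were 19.0% and 23.5%, against 22.1% and 20.6%. In the lowest (121 falls) they were 4.96% and 9.92%, against 12.5% and 12.4%. The choice of these genes and the direct comparison share the 1960 µg/L libraries.

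The response was also chosen on some 1960 µg/L libraries and tested on the others. Chosen on A and B and tested on C to E, 16.8% of 410 rises were lower and 18.6% of 527 falls higher at 12249 µg/L, against 19.2% and 18.8% of all genes. Chosen on C to E and tested on A and B, these shares were 19.7% of 574 rises and 15.0% of 779 falls, against 17.3% and 16.7% of all genes. These divisions also choose with fewer libraries, and the genes they chose had larger changes at 1960 µg/L: the median difference of the rises from the control was 1.06 when A and B chose and 0.89 when C to E chose, against 0.79 with all 5 libraries. The part of each of these differences in the shares was not tested.

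Movement further from the control kept its share. In the first division 23.2% of the rises were higher and 27.1% of the falls lower, against 18.8% and 19.2% of all genes, and in the second 22.1% and 26.1%, against 16.7% and 17.3%. Expression level bears on these shares, since more genes are called where levels are high. In the highest of 3 equal classes of genes by mean level (terciles) the strengthened shares were 40.4% of 114 rises and 33.4% of 344 falls in the first division, against 26.5% higher and 29.0% lower among all 2430 genes there. In the second division they were 37.6% of 197 rises and 33.5% of 448 falls, against 26.1% and 26.5%. The turned back shares in that tercile lay below those of all genes there. They were 21.1% of the rises, against 29.0%, and 21.8% of the falls, against 26.5%, in the first division, and 23.9% against 26.5% and 19.2% against 26.1% in the second.

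**Figure D3:**
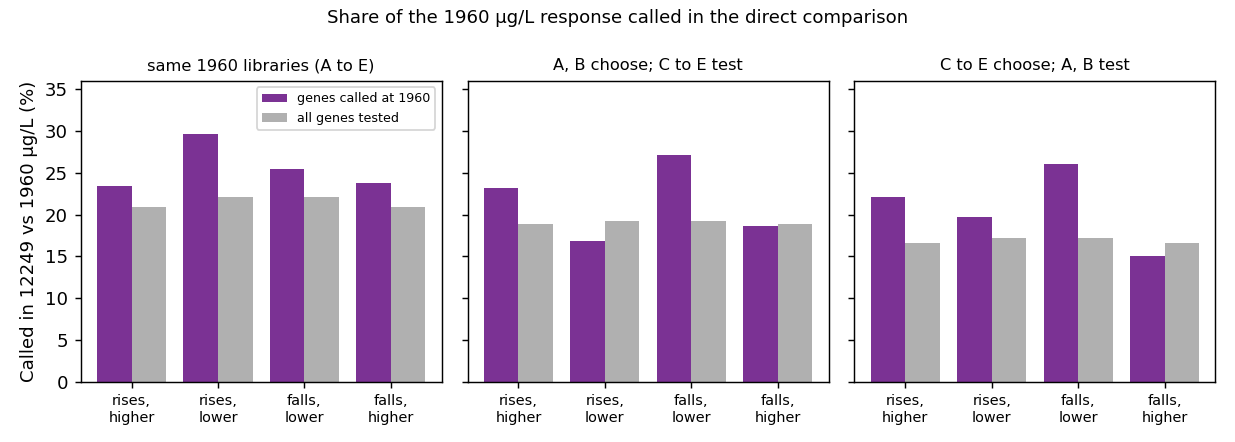
Percent of genes called in the direct comparison of 12249 with 1960 µg/L (vertical axis), for the rises and falls at 1960 µg/L (purple) beside all genes tested (grey), each in the named direction. With the same 1960 µg/L libraries 29.6% of rises were lower, against 22.2% of all genes; with libraries divided between choice and test this share was 16.8% or 19.7%, against 19.2% or 17.3%.

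The strengthened rises had their highest median at 12249 µg/L, a concentration that chose them. Their median difference from the control was 2.16 at 12249 µg/L and 0.81 at 1960 µg/L, values that the class itself uses. At 4900 and 30623 µg/L, which did not choose them, the class median lay between these values. The class median was at most 0.05 up to 784 µg/L, 1.24 at 4900 µg/L with single libraries between 0.90 and 1.58, and 1.77 at 30623 µg/L with libraries between 1.49 and 2.16. All 168 were above the control mean at 4900 µg/L and 166 at 30623 µg/L, although the control mean is shared by these differences.

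Rsub_06668 was the strengthened rise with the largest change. Its log2 levels were 7.56, 7.13 and 8.80 in the 12249 µg/L libraries, against 3.93, 5.16, 4.81, 4.72 and 4.40 in the 1960 µg/L libraries A to E. Every 12249 µg/L library lay above every 1960 µg/L library. The mean was 7.83 ± 0.87 (SD, n = 3) at 12249 µg/L and 4.60 ± 0.46 (SD, n = 5) at 1960 µg/L, a log2 change of 3.22 ± 0.34 (SE), or 9.33-fold, with a limma adjusted p of 1.89e-11 (3.31e-08 at most over 20 alternatives). Against the control, at 3.79 ± 0.40 (SD, n = 5), its 1960 µg/L change of 0.81 only just passed (limma adjusted p = 0.0404). That call was lost when 1960 µg/L replicate B, C or D or control replicate B, D or E was left out (limma adjusted p = 0.0663 to 0.124, and up to 0.218 over all alternatives), while the direct change remained past the threshold in each direct fit run.

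Strengthened falls made smaller steps. Of the 229, 67 had a direct log2 change of at least 1, against 88 of the 168 strengthened rises. Their median difference from the control was -1.52 at 12249 µg/L and -0.67 at 1960 µg/L. At 4900 µg/L it was -1.23, with the lowest library at -1.43, and at 30623 µg/L -1.53, with libraries between -1.54 and -1.49. All 229 were below the control mean at both of these concentrations. Up to 784 µg/L the median lay between -0.04 and 0.

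Rsub_10831 fell most among them. It stood at 3.79, 4.08 and 4.33 in the 12249 µg/L libraries, against 6.58, 6.53, 5.96, 5.94 and 6.17 in the 1960 µg/L libraries A to E. The groups did not overlap, and the difference was 4.51-fold. The mean was 4.06 ± 0.27 (SD, n = 3) at 12249 µg/L and 6.24 ± 0.30 (SD, n = 5) at 1960 µg/L, and the gene fell by 2.17 ± 0.18 (SE) on the log2 scale, with a limma adjusted p of 4.95e-15 (8.99e-09 at most over 20 alternatives). The level at 4900 µg/L was already the same, with a mean of 4.06 ± 0.28 (SD, n = 5). At 30623 µg/L the level was 4.85 ± 0.45 (SD, n = 3), and in the control it was 6.90 ± 0.18 (SD, n = 5). The gene kept its class in 24 of 25 alternatives. Its fall at 1960 µg/L was not called when only replicates A and B chose (limma adjusted p = 0.254).

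Kept genes were chosen for having no direct call, so similar levels at 12249 and 1960 µg/L are part of the rule. The 229 kept rises had a median difference from the control of 1.01 at 12249 µg/L and 0.89 at 1960 µg/L, and of 0.78 at 4900 and 1.22 at 30623 µg/L. The 349 kept falls had a median of -0.90 at 12249 µg/L and -0.81 at 1960 µg/L, and of -0.87 at 4900 and -0.94 at 30623 µg/L. At 30623 µg/L the quartiles of the kept rises were 0.57 and 1.84, and 19 of the 229 were below the control mean, while 17 of the 349 kept falls were above it. Kept falls had already drifted to -0.16 at 784 µg/L, and 29 of them were at -1 or lower there. Only 26 of the kept rises and 77 of the kept falls had a 95% interval of the direct change within 0.5 of 0, so most could hide a change of that size. The unresolved genes lay between the control and their 1960 µg/L level, with a median of 0.38 for rises and -0.34 for falls at 12249 µg/L, against 0.72 and -0.62 at 1960 µg/L.

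**Figure D4:**
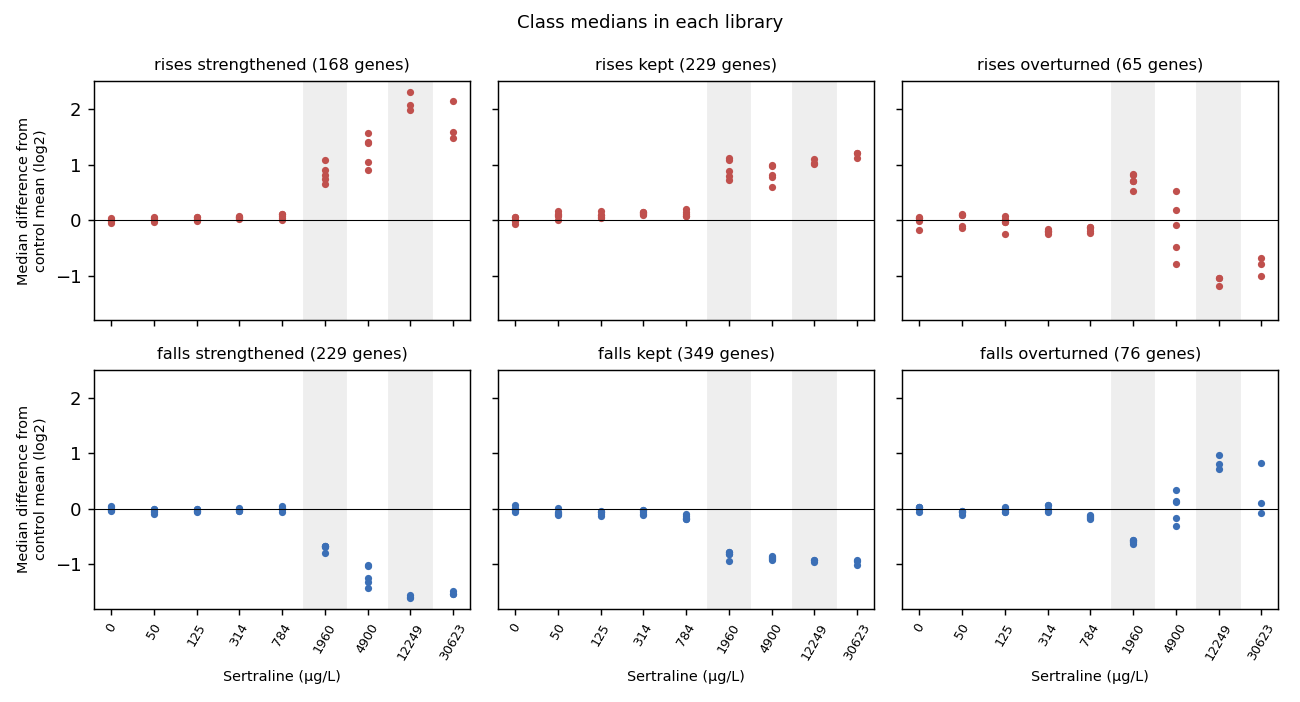
Median difference from the control mean (vertical axis, log2) over the genes of 6 classes in each of 41 libraries, by sertraline concentration (horizontal axis, not to scale); shaded columns are 1960 and 12249 µg/L, which with the control chose the classes. Strengthened rises reached 2.16 and strengthened falls -1.52 at 12249 µg/L, kept classes stayed near 1 and -0.9, and overturned classes crossed 0 with the 4900 µg/L libraries spread around it.

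The overturned rises fell furthest, which their class rule largely requires. An overturned rise was called above the control at 1960 µg/L and below it at 12249 µg/L, so its direct change spans both differences. These 65 genes had a median direct log2 change of -1.81 (quartiles -2.30 and -1.48), and 62 changed by at least 1, against 17.1% of all genes. All 65 had non-overlapping libraries, against 32.1% of all genes, but the direct call that chose them uses these same libraries. Their median difference from the control was -1.04 at 12249 µg/L and 0.69 at 1960 µg/L. At 4900 µg/L, which did not choose them, the class median was 0.53 in library A, 0.18 in B, -0.08 in C, -0.49 in D and -0.78 in E. These libraries thus covered most of the range between the 1960 and 12249 µg/L values. At 30623 µg/L the class median was -0.69, and 61 of the 65 were below the control mean.

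Some overturned rises were also low at 314 and 784 µg/L. Their lower quartile was -0.64 at 314 and -0.76 at 784 µg/L, and 8 and 12 of the 65 were at -1 or lower at these concentrations, while the class medians were -0.17 and -0.14. The size of this class depended on single libraries: it held 40 genes without 1960 µg/L replicate C and 31 without control replicate E.

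Rsub_11267 had the strongest fall of any gene that turned back and the second lowest direct change of all 7291. Its levels were 4.67, 4.92 and 4.93 in the 12249 µg/L libraries, against 8.20, 7.86, 8.23, 8.35 and 8.34 in the 1960 µg/L libraries A to E. Both groups were tight and lay far apart. The mean was 4.84 ± 0.15 (SD, n = 3) at 12249 µg/L and 8.20 ± 0.20 (SD, n = 5) at 1960 µg/L, and the gene fell by 3.36 ± 0.32 (SE) on the log2 scale, a 10.2-fold difference, with a limma adjusted p of 4.56e-13 (7.55e-10 at most over 20 alternatives).

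Its group means across the series lay on both sides of the control mean, and only the steps against the control at 1960 and 12249 µg/L and the direct one are tested here. It stood at 7.20 ± 0.42 in the control, 7.10 ± 0.48 at 50, 6.92 ± 0.57 at 125, 5.95 ± 0.12 at 314 and 5.87 ± 0.17 at 784 µg/L (SD, n = 5 each), before the peak at 1960 µg/L. Its 4900 µg/L libraries ran between 5.12 and 7.94, with a median of 6.84, and those at 30623 µg/L lay between 4.69 and 5.15. The 1960 µg/L level was 1.00 ± 0.27 (SE) above the control on the log2 scale (limma adjusted p = 0.00535), and the 12249 µg/L level fell by 2.36 ± 0.32 (SE) below it (limma adjusted p = 7.89e-09). The gene kept its class in 24 of 25 alternatives. Its rise at 1960 µg/L was not called when only replicates A and B chose (limma adjusted p = 0.13).

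The overturned falls rose by a smaller amount. These 76 genes had a median direct log2 change of 1.48 (quartiles 1.20 and 1.75), with a median difference from the control of 0.77 at 12249 µg/L and -0.60 at 1960 µg/L. All 76 had non-overlapping libraries, which the direct call that chose them largely fixes, against 32.1% of all genes. They were well expressed, with 59 (77.6%) in the highest tercile of genes by mean level. At 4900 µg/L the class median was -0.31 in library A, -0.16 in B, 0.14 in C, 0.12 in D and 0.34 in E. At 30623 µg/L the libraries disagreed, with 0.83 in A, -0.07 in C and 0.10 in D.

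Rsub_11026 rose most among the falls that turned back. It stood at 7.33, 7.87 and 8.94 in the 12249 µg/L libraries, against 4.96, 5.77, 4.24, 4.71 and 4.66 in the 1960 µg/L libraries A to E. The lowest 12249 µg/L library was above the highest 1960 µg/L library by more than 1 on the log2 scale. The mean was 8.05 ± 0.82 (SD, n = 3) at 12249 µg/L and 4.87 ± 0.57 (SD, n = 5) at 1960 µg/L, a log2 change of 3.18 ± 0.25 (SE), or 9.04-fold, with a limma adjusted p of 1.11e-15 (1.08e-10 at most over 20 alternatives).

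At 4900 µg/L Rsub_11026 was near its control level, with 5.61 ± 0.22 (SD, n = 5), against 5.48 ± 0.35 (SD, n = 5) in the control, and at 30623 µg/L it was at 7.70 ± 0.76 (SD, n = 3). Its place among the falls at 1960 µg/L was weak: the change against the control was -0.61 ± 0.22 (SE; limma adjusted p = 0.035). That call was lost without 1960 µg/L replicate C, D or E or control replicate A, B, D or E (limma adjusted p = 0.0556 to 0.145, and up to 0.836 over all alternatives). Its rise above the control at 12249 µg/L, 2.57 ± 0.25 (SE), did not depend on that call (limma adjusted p = 5.82e-13).

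**Figure D5:**
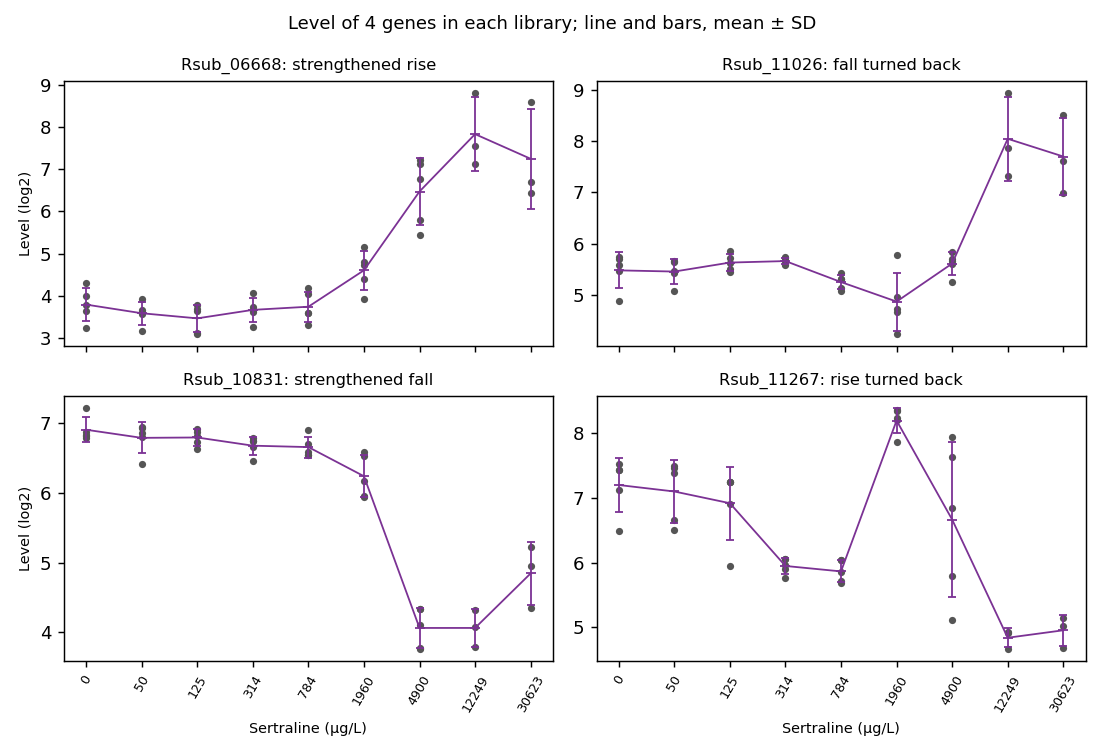
Log2 level (vertical axis) of Rsub_06668, Rsub_11026, Rsub_10831 and Rsub_11267 in each library (points) by sertraline concentration (horizontal axis, not to scale), with the group mean ± SD (line and bars; n = 5, or 3 at 12249 and 30623 µg/L). Rsub_06668 and Rsub_11026 stand at 7.83 and 8.05 at 12249 µg/L, and Rsub_11267 peaks at 8.20 at 1960 µg/L before its fall.

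Returned genes made smaller moves than overturned ones, which the class rules also largely require. The 136 returned rises had a median difference from the control of -0.12 at 12249 µg/L and 0.73 at 1960 µg/L, with 0.29 at 4900 and 0.11 at 30623 µg/L. The 125 returned falls had 0.06 at 12249 µg/L and -0.65 at 1960 µg/L, with -0.34 at 4900 and -0.35 at 30623 µg/L. Their single libraries at 30623 µg/L lay between -0.58 and 0.11, so the return of these falls was not shared by all of them. The 11 weakened rises were the highest at 1960 µg/L, with a median of 1.64 above the control at 12249 µg/L and 2.41 at 1960 µg/L. Their class rule favours this, since a called fall had to leave them still called above the control. The weakened rises were also the least expressed class, at a median level of 3.57 over all libraries.

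Without regard to expression level, genes outside the 1960 µg/L response were called directly less often than genes in it. Of the 5678 genes not called against the control at 1960 µg/L, 2317 (40.8%) were called, against 43.1% of all genes. The share was 53.1% of the rises and 49.3% of the falls at 1960 µg/L, whose choice shares libraries with the direct comparison. Of the 897 falls, 550 were in the highest tercile by mean level, where 61.6% of all genes were called. In that tercile 32.7% of the falls were lower and 26.9% higher, against 32.0% and 29.6% of all genes there. The higher share of the falls over the whole table can therefore not be told apart from their expression level. Direct changes of log2 2 or more numbered 106 upward and 65 downward in the whole table. The 5678 genes outside the response held 67 and 36 of these. The 716 rises at 1960 µg/L held 29 and 26, and the 897 falls held 10 and 3. Relative to group size, such large changes were thus most frequent among the rises at 1960 µg/L. Their 26 downward changes were counted on the same 1960 µg/L libraries that chose these genes, which favours falls. Divided libraries were not examined at this size of change. Of the 5678 genes, 952 exceeded both the 1960 µg/L and the control level at 12249 µg/L, and 942 lay below both. The 952 rises had a median difference from the control of 1.03 at 12249 µg/L (0.92 in A, 0.95 in B, 1.35 in C) and 0.02 at 1960 µg/L. Between these, at 4900 µg/L, the median was 0.42, with libraries between 0.20 and 0.71, and 855 of the 952 were above the control mean. At 30623 µg/L it was 0.68, with libraries between 0.46 and 1.05, and 131 were below the control mean. The 942 falls had -0.95 at 12249 µg/L and -0.02 at 1960 µg/L, with -0.43 at 4900 and -0.84 at 30623 µg/L.

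Other genes had a direct call but no call against the control at either concentration, 189 that rose and 234 that fell between 1960 and 12249 µg/L. This rule largely fixes that they lie on opposite sides of the control mean at 1960 and 12249 µg/L. A crossing of the control level was therefore not tested. The 189 had a median difference from the control of 0.36 at 12249 µg/L and -0.31 at 1960 µg/L, and the 234 had -0.41 at 12249 µg/L and 0.33 at 1960 µg/L. At 4900 µg/L both stood near the control, at 0.02 and -0.02. At 784 µg/L they were at -0.08 and 0.09, on the same side as at 1960 µg/L.

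The share of genes called increased with expression level. In the highest tercile by mean level 720 genes rose and 778 fell between 1960 and 12249 µg/L, against 301 and 303 in the lowest tercile. The median direct change was between -0.05 and -0.04 in every tercile. The classes differed in level: 78.6% of the strengthened falls and 56.5% of the strengthened rises were in the highest tercile, against 24.5% of the kept rises and 25.7% of the returned rises. Among the other falls the share was 50.1% of the kept and 63.2% of the returned. In the lowest tercile 25.7% of the 257 rises at 1960 µg/L were lower at 12249 µg/L, against 12.5% of all genes there, and 5 genes were overturned. These rises were chosen and tested on the same 1960 µg/L libraries, and divided libraries were not examined in this tercile.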

How the data were processed

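Per the labels, QuantSeq 3′ libraries carried molecular identifiers. The table the authors deposited holds normalized log values, taken as log2, of 7291 genes in 41 of 45 labelled libraries. The submitters' processing notes name STAR 2.7.10a, featureCounts 2.0.6, DESeq2, SAMtools 1.15.1, bcl2fastq 2.20.0 and fastp 0.23.2. Not given in the sources used here are the genome build, the transform, any gene filter and how the identifiers were used. Another log base would alter each fold, and a shrinking transform would understate changes of low genes.

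limma 3.58.1 in R 4.3.3 estimated each group's mean from all 41 libraries jointly, and eBayes used an intensity trend (residual degrees of freedom 32, prior 24.4), with no filter or pseudocount. Tests were two-sided, Benjamini-Hochberg adjusted over all genes, at 0.05. On simulated data with few changed genes, this shared spread gave more false calls than the threshold allows. Array weights per group and the 2 groups alone did not, so their counts stand beside the main ones. Named genes were the largest direct change among strengthened and among turned back genes, in each direction, with non-overlapping libraries. The comparison, classes and rules were chosen with earlier results of these data known. The 16 product-name gene lists were not used, since no table paired identifiers with names. Figures used Python 3.11.15 and matplotlib 3.10.9.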

Additional observations from a re-analysis of the deposited data

Results flagged for a closer look

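Of 32 groups of 5 values, 4 held a library far from the rest, and about 1.60 such groups would arise by chance. Rsub_10831 was at 7.22 in control replicate D, against 6.78 to 6.87 in the other control libraries. At 50 µg/L it was at 6.41 in replicate A, against 6.79 to 6.94. Rsub_11267 was at 5.94 in replicate B at 125 µg/L, against 6.91 to 7.25. Over the strengthened falls, replicate D at 1960 µg/L had a median of -0.80 against the control mean, and the other libraries at 1960 µg/L had -0.68 to -0.66. The 12249 µg/L group, with 3 libraries, was too small to examine in this way.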

How the results depend on the processing

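The reported calls were compared gene by gene with those of 6 other fits. The fits of the 2 groups alone, without the control and without the 4900 µg/L libraries keep every log2 change, so no call could turn in them. Centring moved the median change only from -0.043 to -0.003. With centring, quantile scaling or a replicate block, 0 genes were called in the opposite direction. The majority of falls turned to a majority of rises under centring (1612 higher, 1507 lower). The 4900 µg/L median of the overturned falls, -0.00 as reported, was 0.03 under centring and 0.04 under quantile scaling. The direct change of each named gene stayed past the threshold in all 20 alternatives that gave one. No pairing by replicate letter was seen: same-letter deviations at 12249 and 1960 µg/L correlated at 0.04, 0.03 and -0.08, and different-letter ones between -0.13 and 0.15. With only 3 libraries at 12249 µg/L these values cannot exclude pairing. With the letter as a replicate block 3154 genes differed. Leaving out the 4900 µg/L libraries, an alternative chosen after seeing the data, gave 1559 genes higher and 1694 lower.

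With a direct log2 change of at least 1, 1249 genes differed, 675 higher and 574 lower. Then 88 rises and 67 falls at 1960 µg/L were strengthened and 115 and 84 turned back. At an adjusted p of 0.01, 83 rises and 124 falls were strengthened, 80 and 107 turned back, 19 and 31 were overturned and 151 rises were kept. Without the lowest tercile of genes 138 rises were kept. With 1960 µg/L libraries A and B choosing and C to E testing, 95 rises and 143 falls were strengthened, 69 and 98 turned back, 22 and 40 were overturned and 220 falls were kept. With C to E choosing, 113 rises and 117 falls turned back. Fewer libraries choose and test in these divisions. Overturned rises numbered 31 to 69 when single libraries were left out. Of the same results, 234 other values lay within 1.5 times the reported one. Among the smaller classes, leaving out single libraries gave 74 to 169 unresolved rises and 82 to 185 unresolved falls, with 5 to 15 weakened rises and 6 to 15 weakened falls. Under centring and quantile scaling the strengthened falls had a median of -1.49 and -1.44 at 30623 µg/L in place of -1.53. Depth is unknown, and 3 libraries at 12249 µg/L limit the precision.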
